A study of Homo sapiens with 15 samples.

Results

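RNA-seq of MIA PaCa-2, an established line from a human pancreatic carcinoma, was used to follow the genes of the lysosomal sialidase complex and of sialic acid export through 15 libraries. The members are NEU1, CTSA, GLB1, SLC17A5 and GALNS, found by their symbols, and they make up 5 of the 60107 genes listed. All groups were the same cell line, and each held 3 libraries. The control group, labelled Ctrl, received vehicle, whose composition is not described. The other groups received Lys05, BAQ12, BAQ13 or BAQ12O at 5 µM for 24 h. Lys05 is a bisaminoquinoline that inhibits autophagy by acting on lysosomes. BAQ12 and BAQ13 join its cationic head to a hydrophobic tail like that of the lysosomotropic detergent MSDH, and their tails differ by a single methylene unit. The study states that the cells received BAQ13 as nanoparticles, which form by self-assembly, and it describes such particles for BAQ12 too. It reports none for Lys05 alone, so formulation and structure cannot be told apart in the comparisons with Lys05. BAQ12O is known here only by its label, shortened to 12O in the series' design text, and nothing is said of its structure. The agents were set at the same concentration, not at the same effect on growth.

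Sialic acids cap many glycoproteins and gangliosides and are removed in the lysosome by the sialidase NEU1. NEU1 is stable and active only in a complex with cathepsin A, the serine carboxypeptidase encoded by CTSA, which also protects the beta-galactosidase GLB1, the enzyme that takes off the galactose exposed next. GALNS, the galactosamine-6-sulphatase of keratan sulphate and chondroitin-6-sulphate breakdown, has been found in the same complex. SLC17A5, or sialin, is the proton-coupled carrier that moves free sialic acid out of the lysosome. Loss of these proteins causes lysosomal storage diseases: sialidosis, galactosialidosis, GM1 gangliosidosis, Salla disease and Morquio syndrome.

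On the GRCh38 assembly with GENCODE annotation, all 5 are protein-coding genes. NEU1 (ENSG00000204386) lies at chr6:31857659-31862906 on the minus strand and SLC17A5 (ENSG00000119899) at chr6:73593379-73654155 on the minus strand. CTSA (ENSG00000064601) lies at chr20:45890144-45898820 on the plus strand, GLB1 (ENSG00000170266) at chr3:32996608-33097230 on the minus strand and GALNS (ENSG00000141012) at chr16:88813734-88856970 on the minus strand. CTSA shares 200 bases with PLTP on the opposite strand, and GALNS shares 751 bases with TRAPPC2L on the opposite strand. CTSA also shares 1144 bases with NEURL2 on the opposite strand, and GLB1 shares 6381 bases with TMPPE on the same strand. NEURL2 and TMPPE each had at most 2 reads in a library. The strand setting of the counting is not given in the sources used here, so reads in the opposite-strand overlaps cannot be told apart. The part of the TMPPE overlap in the GLB1 values was not tested.

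Promoter windows from RefSeq (GRCh38.p14, 250 bases before the annotated start to 50 after it) were found for all 5 genes. Only the 250 bases before the start were searched, and all matches and shares below refer to them. The search covered both strands and looked for TCACGTG, the letters at the core of the element that the lysosomal regulator TFEB recognises. NEU1, CTSA and GALNS held a match, as did 3.31% of the 35116 windows of all genes, and each match also contains the shorter E-box CACGTG, found in 6.34%. The stretches below show these matches in capitals, 5′ to 3′ on the gene's own strand, beside SLC17A5, whose searched bases held none.
NEU1 (chr6:31862910-31862999, minus strand): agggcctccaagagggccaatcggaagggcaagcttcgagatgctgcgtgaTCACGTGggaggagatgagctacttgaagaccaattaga
CTSA (chr20:45891290-45891319, plus strand): tgTCACGTGgcgccggagtTCACGTGActc
GALNS, distal (chr16:88857100-88857129, minus strand): caccgcgTCACGTGAcccgccgctggtcac
GALNS, proximal (chr16:88856973-88857012, minus strand): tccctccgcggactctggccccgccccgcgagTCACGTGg
SLC17A5 (chr6:73654157-73654242, minus strand): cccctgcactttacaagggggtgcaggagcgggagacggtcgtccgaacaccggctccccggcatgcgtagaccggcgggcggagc
The NEU1 match begins 127 bases before the RefSeq start, those of CTSA 43 and 26 bases before it, and those of GALNS 175 and 33 bases before it. TCACGTGA holds the letters on both strands. The CTSA stretch lies in exons of longer CTSA transcripts, and the distal GALNS stretch lies in exons of TRAPPC2L. The searched bases of GLB1 held no match, but its window sits inside the gene, since 5 of the 7 GENCODE coding transcripts start over 50 bases upstream. The only GENCODE coding transcript of NEU1 and that of SLC17A5 also start over 50 bases upstream of the RefSeq start, though inside the window. The NEU1 distance and the lack of a SLC17A5 match therefore depend on the start used. The letters TCACNCCAC of a sterol regulatory element, present in 0.883% of windows, were in none of the 5. These are matches of letters only, and binding was not measured.

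The values are normalised read counts, that is, reads per gene after division by a library-wide scaling factor. The libraries held 1586566 to 2500551 reads on genes (median 2230594). A floor of 3 reads corresponds to 2.49 to 4.14 normalised counts, and every member was above it in every library. BAQ12 replicate 3 stood apart: its log2 values correlated at 0.936 with those of its group, against 0.970 to 0.988 in the other 14 libraries, so results are also given without it. The label epithelial cell was met in part, as KRT8, KRT18 and KRT19 were at 175 to 970 normalised counts, while EPCAM had at most 1 read and CDH1 at most 5 in a library. VIM was at 9198 to 10781 normalised counts. Of the defining markers of other cell types, DCN, PECAM1, PRSS1, CPA1 and GCG were at 0 in all libraries, INS, COL1A1 and PTPRC had at most 1, 2 and 6 reads, and COL1A2 (148 to 252) and CDH5 (23.9 to 75.3) were detected. Some of these moved with the groups: in the order vehicle, Lys05, BAQ12, BAQ13 and BAQ12O, the mean normalised counts were 332, 253, 222, 184 and 219 for KRT8, 916, 746, 744, 646 and 681 for KRT18, and 496, 465, 502, 539 and 538 for KRT19. In the same order they were 227, 192, 153, 156 and 199 for COL1A2 and 54.5, 51.2, 45.1, 52.9 and 72.4 for CDH5. Their part in the results below was not tested.

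NEU1, the sialidase itself, had normalised counts of 36.5, 22.3 and 31.2 in the vehicle libraries (mean 30.02 ± 7.17, SD, n = 3). It was at 43.7, 41.7 and 39.2 with Lys05 (41.5 ± 2.23), at 53.9, 47.7 and 41.4 with BAQ12O (47.6 ± 6.27) and at 72.5, 56.1 and 46.5 with BAQ12 (58.3 ± 13.1). With BAQ13 it was at 87.7, 97.5 and 98.1 (94.4 ± 5.82). The 3 BAQ13 libraries were above the other 12, and the libraries of each other treatment were above the vehicle libraries. Against vehicle, NEU1 rose 3.13-fold with BAQ13 (log2 fold change 1.65, SE 0.19, adjusted p = 2.11e-05 by limma) and 1.92-fold with BAQ12 (0.94, SE 0.19, adjusted p = 0.0189). The log2 differences for BAQ12O (0.67, adjusted p = 0.103) and Lys05 (0.48, adjusted p = 0.834) did not pass the test. In bulk RNA, a larger change in some of the cells cannot be told apart from a smaller change in all of them. The NEU1 values rest on 20 to 117 reads per library. The BAQ13 call held without any single library (1.45 to 1.80). The BAQ12 call was lost with only the 6 libraries compared (adjusted p = 0.414), and without Ctrl replicate 2 (0.75, adjusted p = 0.146), Ctrl replicate 3 (0.98, adjusted p = 0.0674), BAQ12 replicate 1 (0.77, adjusted p = 0.0754) or BAQ12 replicate 2 (0.96, adjusted p = 0.0565), whereas without BAQ12 replicate 3 the difference was 1.09 (adjusted p = 0.00120). The BAQ12O difference passed without BAQ12 replicate 3 (adjusted p = 0.0212).

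**Figure D1:**
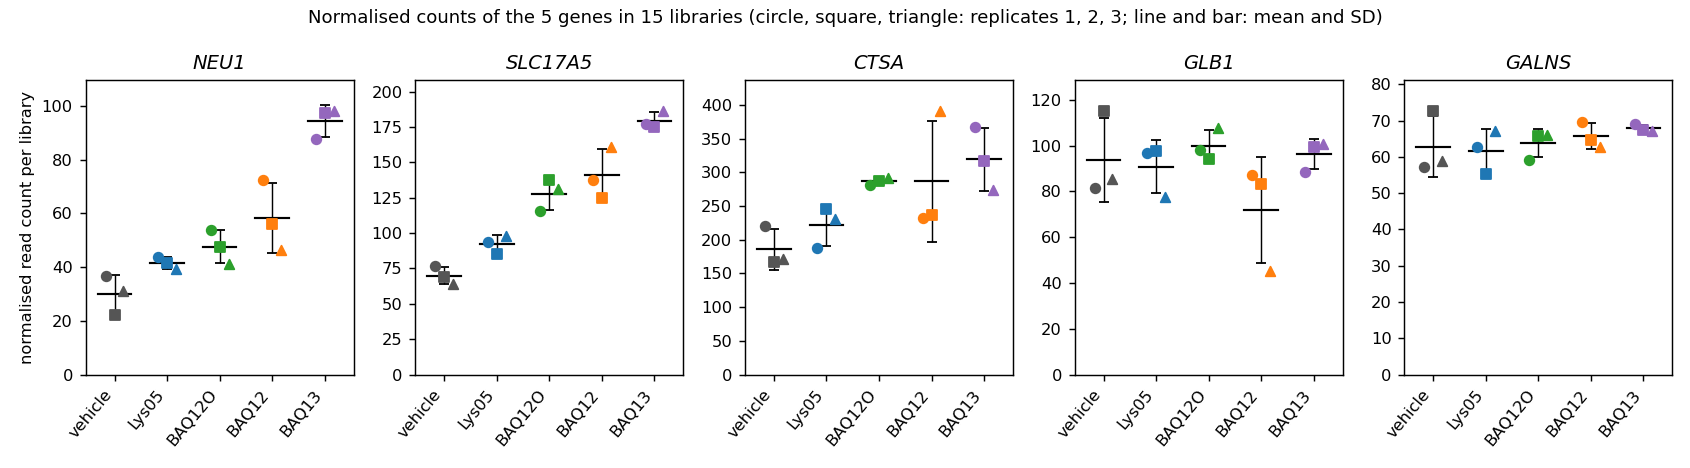
Normalised read counts (vertical axes, linear from 0) of NEU1, SLC17A5, CTSA, GLB1 and GALNS in the 15 libraries, by group on the horizontal axes. Circles, squares and triangles are replicates 1, 2 and 3, and lines with bars are the mean and SD of 3 libraries. NEU1 runs from 22.3 in a vehicle library to 98.1 in a BAQ13 library, and the 3 BAQ13 libraries lie above all others for NEU1 and SLC17A5, while each treated group overlaps the vehicle libraries for GALNS.

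SLC17A5, the exporter, followed the same order of group means. The vehicle libraries had normalised counts of 76.4, 69.2 and 64.3 (70.0 ± 6.10). Lys05 gave 93.7, 85.4 and 98.01 (92.4 ± 6.41), BAQ12O 115, 137 and 131 (127.9 ± 11.3), BAQ12 138, 125 and 161 (141 ± 18.2) and BAQ13 177, 175 and 186 (179 ± 5.84). All treated libraries were above the vehicle libraries, and all BAQ13 libraries were above the rest. SLC17A5 rose 2.55-fold with BAQ13 (log2 fold change 1.35, SE 0.12, adjusted p = 8.98e-07 by limma), 2.00-fold with BAQ12 (1.00, adjusted p = 8.56e-05) and 1.82-fold with BAQ12O (0.86, adjusted p = 0.000815). The Lys05 difference of 0.40 did not pass (adjusted p = 0.499). These 3 calls held without any single library, with log2 fold changes of 1.29 to 1.41 for BAQ13, 0.90 to 1.08 for BAQ12 and 0.80 to 0.93 for BAQ12O. The reads behind them numbered 62 to 222 per library.

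CTSA, the protective protein, had normalised counts of 221, 166 and 171 in the vehicle libraries (186 ± 30.3) and 187, 246 and 231 with Lys05 (221 ± 30.3), which overlap. It was at 281, 288 and 292 with BAQ12O (287 ± 5.50), at 232, 237 and 391 with BAQ12 (287 ± 90.1) and at 368, 316 and 274 with BAQ13 (319 ± 46.9). Every library of these 3 groups was above every vehicle library, and the BAQ12 mean was raised by replicate 3. Only the BAQ13 difference from vehicle passed the test, at 1.72-fold (log2 fold change 0.78, SE 0.17, adjusted p = 0.0114 by limma). BAQ12O (0.64, adjusted p = 0.0864), BAQ12 (0.59, adjusted p = 0.160) and Lys05 (0.25, adjusted p = 0.999) did not. The BAQ13 call was lost without Ctrl replicate 2 (0.70, adjusted p = 0.0697), Ctrl replicate 3 (0.72, adjusted p = 0.0636) or BAQ13 replicate 1 (0.67, adjusted p = 0.0612). Without BAQ12 replicate 3, BAQ12O passed (adjusted p = 0.000692) and the BAQ12 difference shrank to 0.35 (adjusted p = 0.292). PLTP, which overlaps CTSA, had group means of 56.5 (vehicle), 46.7 (Lys05), 72.1 (BAQ12O), 56.6 (BAQ12) and 49.4 (BAQ13) normalised counts, and its part in the CTSA values was not tested.

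GLB1, the beta-galactosidase of the complex, showed no difference from vehicle that passed the test. Its normalised counts were 81.4, 115 and 85.4 in the vehicle libraries (93.9 ± 18.4), 96.9, 97.9 and 77.5 with Lys05 (90.8 ± 11.5) and 98.1, 94.4 and 108 with BAQ12O (100.005 ± 6.78). With BAQ13 they were 88.6, 99.3 and 101 (96.2 ± 6.56). All of these groups overlapped the vehicle libraries. BAQ12 gave 87.1, 83.3 and 45.2 (71.9 ± 23.2), and its low mean came from replicate 3. The log2 fold changes against vehicle were -0.04 for Lys05, -0.42 for BAQ12, 0.05 for BAQ13 and 0.10 for BAQ12O (SE 0.20, adjusted p from limma 0.427 to 0.999), and BAQ12 was at -0.12 without replicate 3 (adjusted p = 0.905). The 95% interval for BAQ13 ran from -0.38 to 0.47, so changes within that range are not excluded.

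GALNS, the sulphatase, had group means within 61.7 to 67.8 normalised counts. The vehicle libraries had normalised counts of 57.3, 72.6 and 58.7 (62.9 ± 8.44), Lys05 gave 62.8, 55.2 and 67.2 (61.7 ± 6.08) and BAQ12O 59.3, 65.8 and 66.2 (63.7 ± 3.87). BAQ12 gave 69.7, 64.6 and 62.8 (65.7 ± 3.58) and BAQ13 69.1, 67.4 and 67.0 (67.8 ± 1.06). All treated groups overlapped the vehicle libraries. The log2 fold changes lay between -0.02 and 0.12 (SE 0.13, adjusted p from limma 0.703 to 0.999), and the interval for BAQ13 ran from -0.17 to 0.40. TRAPPC2L, which overlaps GALNS, had group means of 100.3 ± 14.1 (vehicle), 115 ± 13.6 (Lys05), 101 ± 20.8 (BAQ12O), 152 ± 44.6 (BAQ12) and 155 ± 33.4 (BAQ13) normalised counts. Its part in the GALNS values was not tested.

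Against vehicle, 3 of the 5 genes rose with BAQ13 (NEU1, SLC17A5 and CTSA), where 5.77% of the 10495 genes tested passed in either direction. With BAQ12 there were 2 (NEU1 and SLC17A5), against 0.981% of genes, and with BAQ12O 1 (SLC17A5), against 1.48%. With Lys05 there were 0 by limma, edgeR and DESeq2, against 0.238% of genes. NEU1 and SLC17A5 had unadjusted limma p-values of 0.0216 and 0.00411 there. Thus 2 of the 5 were under 0.05 before adjustment, beside 523 of the 10495 genes tested. None of the 5 passed as lower with any agent. Genes with every treated library above every vehicle library numbered 2 of 5 with Lys05 (all genes 8.24%), 3 with BAQ12 (7.75%), 3 with BAQ13 (14.5%) and 3 with BAQ12O (12.5%). The median log2 fold change of the 5 was 0.25 with Lys05, 0.59 with BAQ12, 0.78 with BAQ13 and 0.64 with BAQ12O, beside medians over all genes tested between -0.00421 and 0.00184. The BAQ12 median is the CTSA value, and without BAQ12 replicate 3 it was 0.35. The 4 comparisons share the same vehicle libraries. NEU1, CTSA and SLC17A5 are also among the lysosomal genes shown in a heat map of the study, which was drawn from the vehicle and BAQ13 libraries, so their direction there is not independent evidence.

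**Figure D2:**
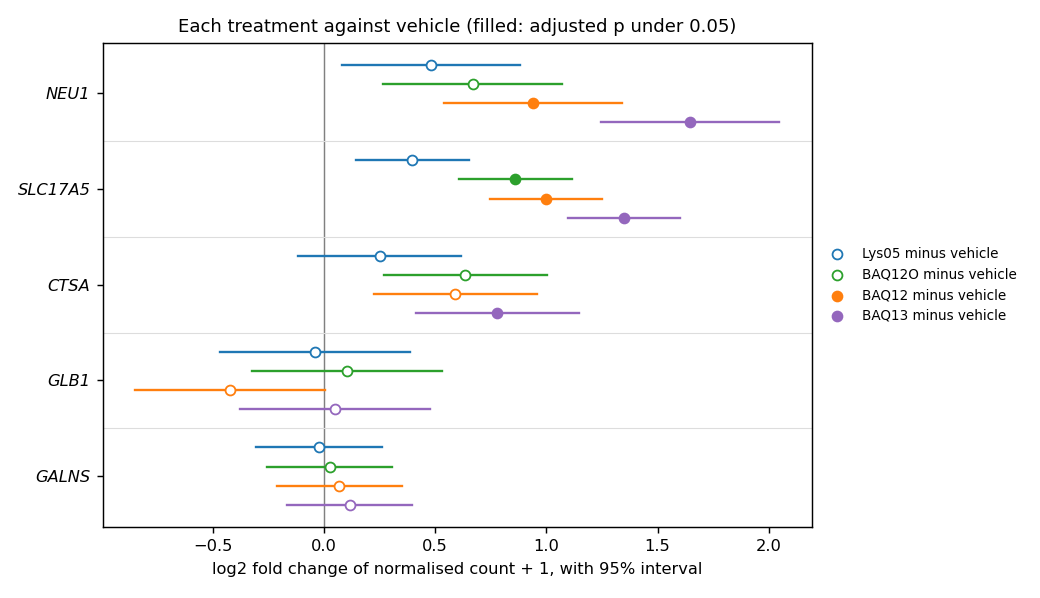
Log2 fold change against vehicle (horizontal axis, normalised count + 1) of each gene for Lys05, BAQ12O, BAQ12 and BAQ13, with 95% intervals from limma. Filled points have an adjusted p under 0.05. Filled points are NEU1 at 0.94 with BAQ12 and 1.65 with BAQ13, SLC17A5 at 0.86, 1.00 and 1.35 with BAQ12O, BAQ12 and BAQ13, and CTSA at 0.78 with BAQ13, while the GLB1 and GALNS points are all open.

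The agents were then compared with each other in 6 pairs at the same dose and time, with p-values adjusted over the 10495 genes within each pair. BAQ13 exceeded Lys05 for NEU1 by 1.17 on the log2 scale (2.24-fold, SE 0.19, adjusted p = 0.00151 by limma) and for SLC17A5 by 0.95 (1.94-fold, SE 0.12, adjusted p = 0.000102). These are 2 of the 5 genes, against 2.66% of all genes, and without any single library both differences held, at 1.13 to 1.22 and 0.90 to 1.00. For CTSA the difference was 0.53 (adjusted p = 0.138), and it passed without BAQ12 replicate 3 (adjusted p = 0.00309). GLB1 and GALNS differed by 0.09 (interval -0.34 to 0.51) and 0.14 (interval -0.14 to 0.42), neither of which passed.

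BAQ12 and BAQ13, separated by a methylene unit in the tail, differed for 0 of the 5 genes by limma, edgeR and DESeq2, where 0.562% of all genes passed by limma. Unadjusted limma p-values under 0.05 were found for 3 of the 5, beside 868 of the 10495 genes tested. NEU1 was 0.71 higher with BAQ13 on the log2 scale (interval 0.31 to 1.11, adjusted p = 0.144), SLC17A5 0.35 higher (interval 0.10 to 0.61, adjusted p = 0.35) and GLB1 0.47 higher (interval 0.04 to 0.90, adjusted p = 0.534). For these 3 genes every BAQ13 library was above every BAQ12 library, for GLB1 by a narrow margin (lowest 88.6 against highest 87.1). The share of all genes separated in this way was not counted for this pair. Without BAQ12 replicate 3 the GLB1 difference was 0.17, and SLC17A5 passed at 0.45 (adjusted p = 0.0452). CTSA (0.19, interval -0.18 to 0.55) and GALNS (0.05, interval -0.23 to 0.33) overlapped.

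BAQ12 differed from Lys05 for 0 of the 5 genes by limma and edgeR and for 1 by DESeq2, against 0.162% of all genes by limma. Of the 5, 2 had unadjusted limma p-values under 0.05, as had 752 of the 10495 genes tested. Every BAQ12 library was above every Lys05 library for SLC17A5 (log2 difference 0.60, interval 0.35 to 0.85, adjusted p = 0.0589) and for NEU1 (0.46, interval 0.06 to 0.86, adjusted p = 0.653). For this pair too, the share of all genes so separated was not counted. SLC17A5 was the gene called by DESeq2 (0.60, adjusted p = 0.0405), and it also passed without BAQ12 replicate 2 (0.68, adjusted p = 0.0423). CTSA (0.34, interval -0.03 to 0.70), GLB1 (-0.38, interval -0.81 to 0.04) and GALNS (0.09, interval -0.19 to 0.37) did not pass.

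Between BAQ12O and BAQ12, 0 of the 5 genes passed by limma, edgeR or DESeq2, against 0.229% of all genes by limma. An unadjusted limma p-value under 0.05 was found for 879 of the 10495 genes tested and for 1 of the 5. That gene was GLB1, 0.53 higher with BAQ12O (interval 0.10 to 0.95, adjusted p = 0.482), a difference of 0.23 without BAQ12 replicate 3. NEU1 (-0.27, interval -0.67 to 0.13), SLC17A5 (-0.14, interval -0.39 to 0.12), CTSA (0.05, interval -0.32 to 0.41) and GALNS (-0.04, interval -0.32 to 0.24) overlapped. Against Lys05, BAQ12O likewise showed 0 of 5 by limma, edgeR and DESeq2 (all genes 0.248% by limma). There were 2 unadjusted limma p-values under 0.05 (all genes 772 of 10495), for SLC17A5 (0.46, interval 0.21 to 0.72, adjusted p = 0.199) and CTSA (0.38, interval 0.02 to 0.75, adjusted p = 0.654). SLC17A5 passed without BAQ12 replicate 3 (adjusted p = 0.0433). NEU1 (0.19, interval -0.21 to 0.59), GLB1 (0.14, interval -0.28 to 0.57) and GALNS (0.05, interval -0.23 to 0.33) overlapped.

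Against BAQ13, BAQ12O was lower for 1 of the 5 genes, where 1.39% of all genes passed. This was NEU1, at -0.98 on the log2 scale (0.508 of the BAQ13 level, SE 0.19, adjusted p = 0.0112 by limma), and the call was lost without BAQ13 replicate 2 (adjusted p = 0.0702), BAQ13 replicate 3 (adjusted p = 0.0550), BAQ12O replicate 2 (adjusted p = 0.0530) or BAQ12O replicate 3 (adjusted p = 0.0820). SLC17A5 was at -0.49 (interval -0.74 to -0.24, adjusted p = 0.0545), and passed by edgeR (adjusted p = 0.0381) and without BAQ12 replicate 3 (adjusted p = 0.00972). CTSA (-0.14, interval -0.51 to 0.22), GLB1 (0.06, interval -0.37 to 0.48) and GALNS (-0.09, interval -0.37 to 0.19) did not pass. Every BAQ12O library was below every BAQ13 library for NEU1, SLC17A5 and GALNS, for GALNS by a narrow margin (highest 66.2 against lowest 67.0). The share of all genes separated in this way was not counted for this pair.

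**Figure D3:**
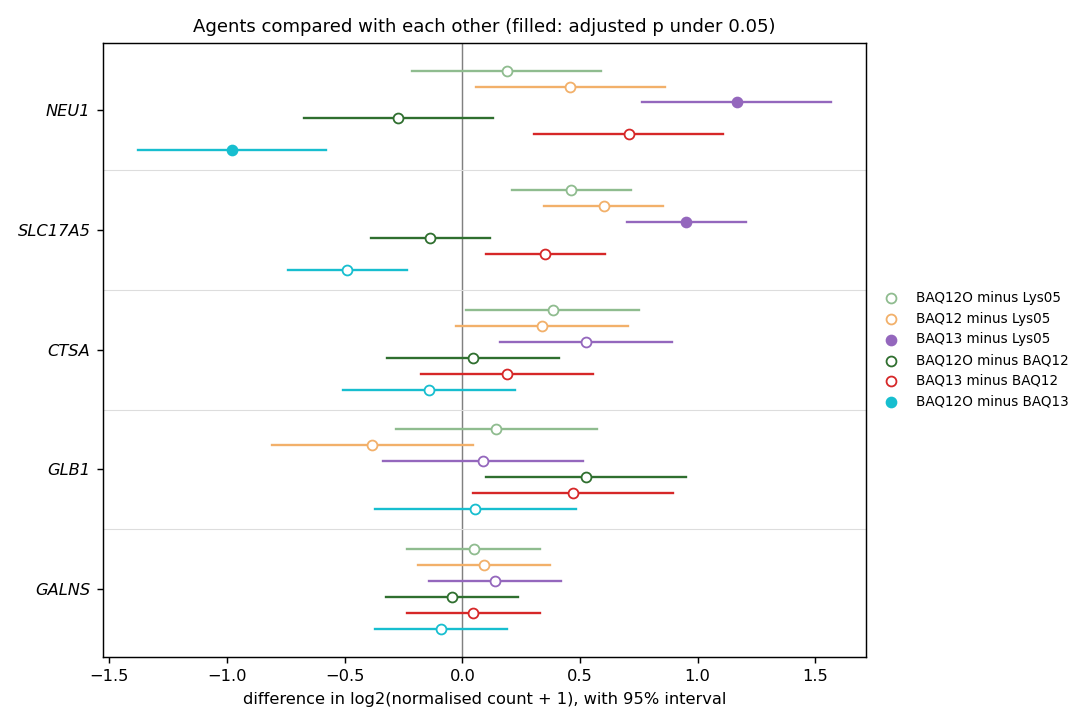
Differences between agents in log2(normalised count + 1) (horizontal axis) for each gene in the 6 pairs, with 95% intervals from limma. Filled points have an adjusted p under 0.05. Filled are BAQ13 minus Lys05 for NEU1 (1.17) and SLC17A5 (0.95) and BAQ12O minus BAQ13 for NEU1 (-0.98), and all points of CTSA, GLB1 and GALNS are open.

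Ordered by group mean, NEU1 and SLC17A5 both ran vehicle, Lys05, BAQ12O, BAQ12, BAQ13. For NEU1 no neighbouring groups in this order differed at an adjusted p-value under 0.05, and for SLC17A5 likewise, the steps being 0.40, 0.46, 0.14 and 0.35 on the log2 scale. CTSA ran vehicle, Lys05, BAQ12, BAQ12O, BAQ13, again with no step between neighbours that passed. For GLB1 (BAQ12, Lys05, vehicle, BAQ13, BAQ12O) and GALNS (Lys05, vehicle, BAQ12O, BAQ12, BAQ13) no pair of groups differed. Over the 15 libraries the log2 values of NEU1 and SLC17A5 correlated at Pearson r = 0.87 (Spearman 0.88), those of CTSA and SLC17A5 at 0.84 (0.80) and those of NEU1 and CTSA at 0.63 (0.62). Without BAQ12 replicate 3 these r values were 0.92, 0.85 and 0.75. GLB1 and GALNS correlated with the other genes and each other at -0.40 to 0.44, and at -0.08 to 0.47 without that library, where the -0.40 of GLB1 with CTSA became 0.03. The libraries of a group share their treatment, so these values describe the 15 points and carry no test.

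**Figure D4:**
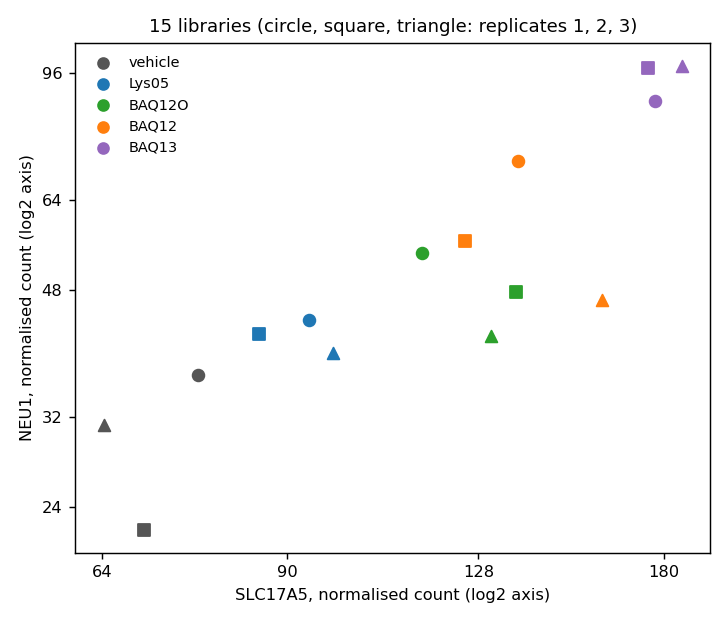
NEU1 (vertical axis) against SLC17A5 (horizontal axis) in normalised counts, both on log2 axes, with 1 point per library coloured by group. The vehicle libraries lie lowest and the BAQ13 libraries highest on both axes, and BAQ12 replicate 3 has a SLC17A5 count of 161 but a NEU1 count of 46.5.

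Most other genes of sialic acid metabolism were too low to test, and those tested did not pass against vehicle by limma, edgeR or DESeq2. Among so few genes a count of 0 is near the shares of all genes that passed by limma, which were 0.238% with Lys05, 0.981% with BAQ12, 5.77% with BAQ13 and 1.48% with BAQ12O. Unadjusted limma p-values under 0.05 were found for 2041 of the 10495 genes tested with BAQ13 and for 1339 with BAQ12O. Of the other sialidases (NEU2, NEU3 and NEU4), only NEU3, the plasma membrane sialidase, was expressed enough to test. Its group means were 44.5 (vehicle), 46.2 (Lys05), 42.6 (BAQ12), 38.3 (BAQ13) and 47.2 (BAQ12O) normalised counts, and the adjusted p-values from limma were 0.640 to 0.999. Of 10 genes of sialic acid synthesis, activation and recycling, 8 were tested and 0 passed against vehicle with any of the 4 agents, although 2 (NANP and NAGK) had unadjusted p-values under 0.05 with BAQ13, and median log2 fold changes were -0.18 (Lys05), -0.24 (BAQ12), -0.13 (BAQ13) and -0.08 (BAQ12O). SIAE, the sialate O-acetylesterase, was at 71.2 ± 3.65 normalised counts with vehicle, 57.8 ± 8.14 with Lys05, 61.4 ± 8.79 with BAQ12, 55.8 ± 11.3 with BAQ13 and 84.9 ± 19.5 with BAQ12O, and did not pass (adjusted p 0.294 to 0.999). Of 20 sialyltransferases, which add sialic acid in the Golgi, 5 were tested and 0 passed, with 1 unadjusted p-value under 0.05, for ST6GALNAC6 with BAQ12O, and medians of -0.17, 0.00386, 0.00537 and -0.16 in the same order of agents. For the paralogs of the 5 genes, 5 of 18 were tested and 0 passed by any of these tools, with 1 unadjusted p-value under 0.05, for SLC17A9 with BAQ13, and medians of 0.05, -0.06, -0.00851 and 0.05.

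Lysosomal hydrolases and activators that work on the same glycans and lipids gave 2 calls with BAQ13, both higher, among 17 tested of 22 listed (median 0.12), where 5.77% of all genes passed. Unadjusted limma p-values under 0.05 were found for 3 of the 17 with BAQ13, beside 2041 of the 10495 genes tested. Besides the 2 called, this was NAGLU, at 0.97 with BAQ13 (adjusted p = 0.137) and 0.95 with BAQ12 (adjusted p = 0.331). Its vehicle values rest on 6 to 19 reads per library. There were 0 calls by limma, edgeR and DESeq2 with Lys05 (median 0.04), BAQ12 (-0.17) or BAQ12O (0.10), with 1, 2 and 2 unadjusted limma p-values under 0.05 among the 17. Over the 10495 genes tested, such p-values numbered 523, 1239 and 1339. GM2A, the activator protein of ganglioside GM2 breakdown, was at 73.8 ± 6.44 normalised counts with vehicle and 133 ± 6.36 with BAQ13, where the lowest library (127) was above the highest of vehicle (78.0). It rose 1.80-fold (log2 fold change 0.85, SE 0.14, adjusted p = 0.000884 by limma), and was also higher with BAQ13 than with Lys05 (0.84, adjusted p = 0.00178). The GM2A differences from vehicle that did not pass were 0.55 with BAQ12O, 0.36 with BAQ12 and 0.00704 with Lys05. The BAQ12O (lowest 91.6) and BAQ12 (lowest 84.2) libraries were all above the vehicle libraries, and the Lys05 libraries overlapped them. PSAP, the precursor of the saposins, rose from 836 ± 32.7 with vehicle to 999 ± 53.2 with BAQ13 (log2 fold change 0.26, SE 0.07, adjusted p = 0.0299). The PSAP differences of 0.19 with BAQ12O and 0.10 with Lys05 did not pass, though all these libraries were above the vehicle libraries. With BAQ12 (0.06) the PSAP values overlapped those of vehicle. Both genes are in the same heat map of the study, so their direction is not independent evidence either. The PSAP call was lost without Ctrl replicate 1 (adjusted p = 0.0624), Ctrl replicate 2 (adjusted p = 0.142), Ctrl replicate 3 (adjusted p = 0.0735), BAQ13 replicate 1 (adjusted p = 0.0997) or BAQ13 replicate 2 (adjusted p = 0.135), and with no filter on low counts (adjusted p = 0.109), whereas the GM2A call held in all of these.

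**Figure D5:**
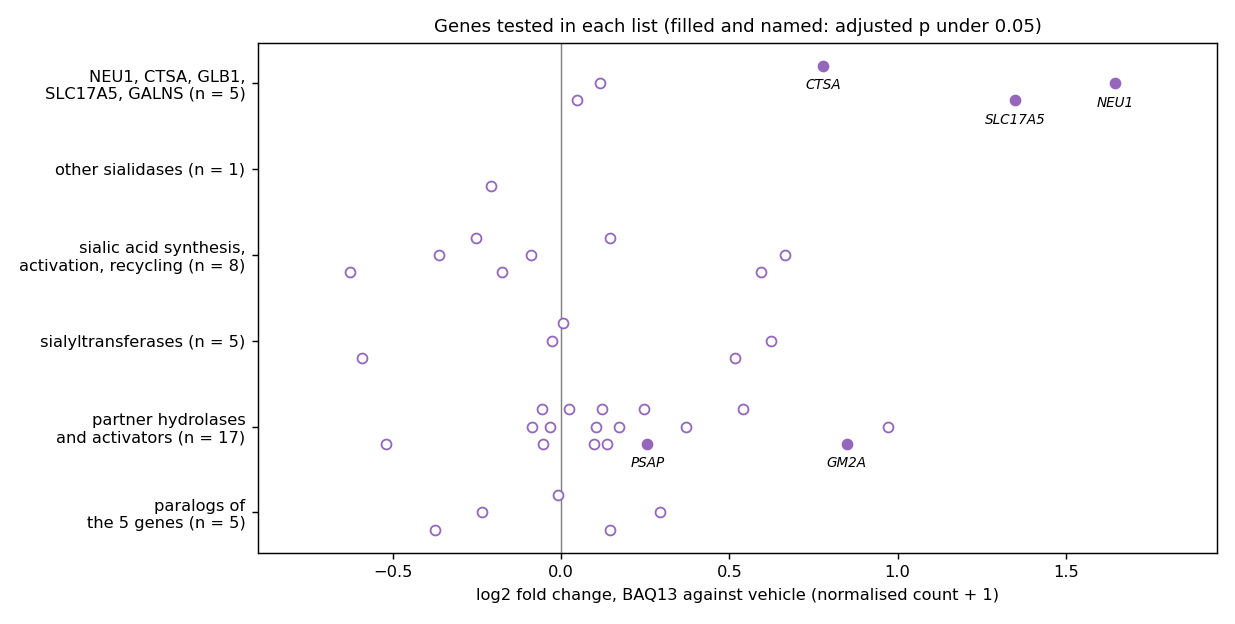
Log2 fold change of BAQ13 against vehicle (horizontal axis) for the tested genes of each list, 1 point per gene, with n the number tested. Filled, named points have an adjusted p under 0.05. These are NEU1 (1.65), SLC17A5 (1.35) and CTSA (0.78) of the 5 genes described, and GM2A (0.85) and PSAP (0.26) of the partner hydrolases and activators.

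Among all genes tested, those whose log2 values over the 15 libraries were most like NEU1 were CLTA, a clathrin light chain (Pearson r = 0.96), ACLY, ATP citrate lyase (0.94), FDFT1, squalene synthase (0.93), the zinc transporter SLC30A3 (0.93) and SCD, stearoyl-CoA desaturase (0.93). For SLC17A5 they were CHD5 (0.98), FASN, fatty acid synthase (0.96), RRAGD, a Rag GTPase of the lysosomal surface (0.96), FDPS, farnesyl diphosphate synthase (0.96) and UAP1L1 (0.96). FDFT1 means went from 217 with vehicle to 856 with BAQ13, and FASN means from 499 to 1708 normalised counts. CTSA was most like TPRN (0.97), the sugar transporter SLC50A1 (0.96), AMBRA1, a regulator of autophagy (0.95), TTC3 (0.95) and the phosphatase DUSP3 (0.93). For these 3 genes the values without BAQ12 replicate 3 were 0.91 to 0.98. GLB1 was most like SMARCA1 (0.93), CFLAR (0.92), UQCR11 (0.92), the lysosomal acid lipase LIPA (0.91) and ZNF419 (0.90). Without BAQ12 replicate 3 these fell to 0.55 to 0.75, so that library raised the GLB1 values. GALNS reached at most 0.83, with RPS19P3, followed by ANAPC10 (0.75), TSPAN14 (0.74), NBPF9 (0.74) and RP11-312B8.1 (0.72). The last of these had group means of only 6.28 to 11.9 normalised counts. All r values here are the highest among the genes tested, over 15 libraries that share treatments by group. They describe these points and carry no test.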

How the data were processed

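RNA from 15 MIA PaCa-2 samples (5 groups of 3) was sequenced. Each deposited file lists a normalised signal for every gene in 1 library. Per the submitters' processing notes, STAR, HTSeq and DESeq2 were used with GRCh38/hg38, without versions given. The kit was for 3′ ends per the labels but stranded and paired-end per the methods, which is not settled here and bears on which part of a transcript was counted. In every library 100% of non-zero signal values were whole multiples of a step (tolerance 0.01), so read counts were recovered. These held 1586566 to 2500551 reads per library, and floors cover counting error only. Groups and replicate numbers came from the labels, which do not say that replicates were separate cultures, so p-values measure the spread between these samples, which may be technical.

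Genes passing filterByExpr on recovered reads (minimum count 10, total 15) numbered 10495 and included all 5 members. The main test was limma with eBayes and a variance trend on log2(signal + 1) over all 15 libraries, without covariates, Benjamini-Hochberg adjusted over the genes tested in each of 10 comparisons, with a threshold of 0.05. The study's methods give fold change and a test of 2 groups per gene. Fold changes on this scale understate changes of low genes. Alternatives were edgeR and DESeq2 on recovered reads, pseudocounts of 0.1 and 5, no filter, at least 10 reads in every library, TMM factors, a fit of 6 libraries only, a replicate block and leaving out each library.

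The members and gene lists (other sialidases, sialic acid synthesis and recycling, sialyltransferases, partner hydrolases and activators, paralogs) were chosen with earlier results of these data known. List genes were named if called against vehicle (at most 4 per list and agent), plus NEU3 and SIAE. NANP, NAGK, NAGLU, SLC17A9 and ST6GALNAC6 were named after their values were seen. The 5 genes most like each member were taken by Pearson r. Positions are from GENCODE release 29, in which 56531 of 60107 identifiers were found. The software comprised limma 3.58.1, DESeq2 1.42.0 and edgeR 4.0.16 in R 4.3.3, and pandas 2.3.3, matplotlib 3.10.9 and numpy 2.4.6 in Python 3.11.15.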

Additional observations from a re-analysis of the deposited data

How the results depend on the processing

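Of the 10 counts of members called, those for Lys05 and BAQ13 against vehicle, BAQ13 against Lys05 (2, or 3 in some settings) and BAQ12O against BAQ12 stayed within 1.5 times in all alternatives. With only the 6 libraries compared, 1 gene was called for BAQ12 against vehicle (main value 2), 3 for BAQ12O against vehicle (main 1), 2 for BAQ12O against Lys05 (main 0) and 2 for BAQ12O against BAQ13 (main 1). With at least 10 reads in every library, which left 8320 genes, BAQ12 against Lys05 gave 1 (main 0) and BAQ12O against BAQ13 gave 2. DESeq2 gave 1 for BAQ12 against Lys05 and edgeR gave 2 for BAQ12O against BAQ13. The cause of these shifts was not tested. Leaving out each library gave 1 to 2 for BAQ12 and 1 to 3 for BAQ12O against vehicle, 0 to 1 for BAQ12 and for BAQ12O against Lys05, 0 to 1 for BAQ13 against BAQ12 and 0 to 2 for BAQ12O against BAQ13. The upper values for BAQ12O and for BAQ13 against BAQ12 came without BAQ12 replicate 3. For the other gene lists in BAQ13 against vehicle, settings added after the values were seen gave 1 to 3 genes on leaving out each library and 1 with the replicate block (main 2, PSAP lost at adjusted p = 0.0514).

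With the replicate block, 3 genes were called for BAQ13, 2 for BAQ12, 1 for BAQ12O and 0 for Lys05 against vehicle, and no count of members called changed. Across genes, same-numbered libraries deviated from the mean of their group with correlations of -0.49 to 0.20. The lowest were those of BAQ13 with BAQ12, at -0.488 for replicate 1 and -0.492 for replicate 3. In no comparison were all pairs over 0.1, and the main test used no pairing. Whether same-numbered samples shared a batch or culture was not tested. Of single differences, 9 near 0 changed sign on leaving out a library, none of them called. Their ranges were -0.13 to 0.11 (GLB1) and -0.085 to 0.084 (GALNS) for Lys05 against vehicle, -0.045 to 0.20 (GLB1) for BAQ13 and -0.036 to 0.13 (GALNS) for BAQ12O against vehicle, -0.020 to 0.15 (GLB1, BAQ13) and -0.029 to 0.11 (GALNS, BAQ12O) against Lys05, -0.084 to 0.29 (CTSA) and -0.075 to 0.00736 (GALNS) for BAQ12O against BAQ12, and -0.00142 to 0.10 (GLB1) for BAQ12O against BAQ13. At 20 to 222 reads per library for NEU1, GLB1, SLC17A5 and GALNS, counting error limits how small a change could be seen.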

Other observations

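ST6GALNAC6, a sialyltransferase of gangliosides, was singled out after its values were seen, as it was called in a comparison of 2 agents. Its normalised counts were 13.1 ± 3.72 with vehicle, 14.6 ± 3.61 with Lys05, 12.5 ± 4.93 with BAQ12, 18.9 ± 3.45 with BAQ13 and 5.80 ± 1.71 with BAQ12O (SD, n = 3 libraries each). The log2 difference of BAQ12O from BAQ13 was -1.56 (SE 0.34, adjusted p = 0.0240 by limma), where edgeR called 1 of the sialyltransferases tested and DESeq2 0, while that from vehicle was -1.04 (adjusted p = 0.161). The BAQ12O values rest on 3 to 7 reads per library, the lowest at the floor of 3 reads.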
